A study of Mus musculus with 22 samples.

Results

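Small nucleolar RNA (snoRNA) host genes are genes whose introns carry snoRNAs, short RNAs that guide the chemical modification and cleavage of ribosomal RNA precursors in the nucleolus. RNA polymerase II (PolII) transcribes the host, the introns are spliced out, and the snoRNA is trimmed from its intron, while the spliced host transcript is often unstable or non-coding. Many hosts belong to the 5′TOP class, genes whose transcripts begin in a run of pyrimidines and whose translation follows growth signals. Here the PolII peaks at 8 such genes, Gas5, Snhg1, Snhg3, Snhg5, Snhg6, Snhg8, Snhg12 and 9430008C03Rik (Snhg17 in RefSeq), were followed from mitosis into G1 with and without CTCF, an architectural protein of chromatin. The 8 genes were chosen on their peak detection, width and best rank in these same lists, so their values are a description without a test. Of the 8, 6 were found by symbol among the 37252 genes of GENCODE vM1 (mm9). Snhg8 was placed through its RefSeq start and is described over 500 bp on either side of it, and Snhg6 was not analysed here.

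PolII ChIP-seq was done in G1E-ER4 cells, a mouse erythroblast line derived from GATA1-null cells, in which both Ctcf alleles carry the auxin-inducible degron (AID) with mCherry and a TIR construct allows degradation. All groups share this background, so the controls carry the degron too. All cells were sorted by DNA content, prometaphase cells also by pMPM2, and controls were gated as mCherry positive and auxin-treated cells as mCherry negative, so auxin and this gate go together. Cells were arrested with nocodazole and collected at 0 h (prometaphase), or after release at 1 h (early-G1), 2 h (mid-G1) or 4 h (late-G1). Mid-G1 had 3 control and 3 auxin libraries and the other stages had 2 of each, giving 18, beside 4 input samples with no peak list. The study calls its replicates biological and left out 1 late-G1 replicate for a technical error, while the labels do not say whether cultures were separate. Depth recovered from the lists ran from 4.93 to 5.95 reads per kb in prometaphase and from 4.54 to 13.3 in G1, where control replicate 1 of mid-G1 was the shallowest, and lists held 2414 to 3918 and 50594 to 117125 peaks. All 10 erythroid markers had a peak in all 14 G1 lists. Of 9 markers of other cell types only Csf1r did, at a median best rank of 19341, and 7 had none.

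The starts of the host genes are shown because they carry letters that most of the members placed share and that were not used to choose them. Each line gives the 40 bases before and the 40 from the RefSeq start, 5′ to 3′, placed in mm9 by an exact match. Capitals mark TATA, and the longest run of at least 6 C or T within 10 bases of the start.
Gas5, the upstream start (chr1:162964692-162964771, plus strand): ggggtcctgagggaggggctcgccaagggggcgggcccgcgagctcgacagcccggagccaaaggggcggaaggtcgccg
Gas5, the downstream start (chr1:162965257-162965336, plus strand): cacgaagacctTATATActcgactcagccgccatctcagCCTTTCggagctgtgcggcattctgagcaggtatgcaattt
Snhg1 (chr19:8797937-8798016, plus strand): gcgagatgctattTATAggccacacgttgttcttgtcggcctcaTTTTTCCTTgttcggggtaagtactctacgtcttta
Snhg5 (chr9:88417696-88417775, minus strand): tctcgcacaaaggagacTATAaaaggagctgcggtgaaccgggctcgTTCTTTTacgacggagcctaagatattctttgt
Snhg8 (chr3:123211215-123211294, minus strand): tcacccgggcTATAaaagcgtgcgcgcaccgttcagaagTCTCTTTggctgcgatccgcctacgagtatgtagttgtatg
Snhg12 (chr4:131864553-131864632, plus strand): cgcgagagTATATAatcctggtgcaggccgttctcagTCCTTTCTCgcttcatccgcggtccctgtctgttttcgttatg
Snhg3 (chr4:131909562-131909641, minus strand): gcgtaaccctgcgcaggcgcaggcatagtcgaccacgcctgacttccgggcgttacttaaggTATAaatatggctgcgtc
9430008C03Rik, the downstream start (chr2:158187206-158187285, minus strand): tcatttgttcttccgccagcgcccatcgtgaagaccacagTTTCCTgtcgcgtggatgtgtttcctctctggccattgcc
A pyrimidine run of this length stood at a start of 6 of the 7 genes placed. Counted by start it was 6 of 9, against 29.2% of 32851 RefSeq promoters. The run began at position 5 in Snhg1 and 8 in Snhg5, past the RefSeq start. The upstream start of 9430008C03Rik, not shown, had neither feature. The letters TATA, on the sense strand, lay in the 40 bases before a start of 5 genes (Gas5, Snhg1, Snhg5, Snhg8 and Snhg12). By start this was 5 of 9, against 7.63% of promoters. Both features stood at the same start in each of these 5 genes, so at 5 of 9 starts, against 2.23% of promoters. In Snhg3 the letters TATA stood at position 23 after the annotated start instead, and 9430008C03Rik had none in the 40 bases before either start. A match is a description of letters, not a shown site.

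The snoRNAs themselves fall into box C/D snoRNAs, which guide 2′-O-methylation, and box H/ACA snoRNAs, which mostly guide pseudouridylation. An example of each is shown from mm9, with the C box TGATGA and the D box CTGA, or the ACA box, in capitals.
SNORD44 in Gas5 (chr1:162966813-162966872, plus strand): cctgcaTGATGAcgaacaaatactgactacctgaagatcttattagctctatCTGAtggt
SNORD50 in Snhg5, nearer the start (chr9:88416635-88416706, minus strand): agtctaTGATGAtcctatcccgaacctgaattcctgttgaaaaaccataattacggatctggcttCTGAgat
SNORD50 in Snhg5, farther from the start (chr9:88416367-88416438, minus strand): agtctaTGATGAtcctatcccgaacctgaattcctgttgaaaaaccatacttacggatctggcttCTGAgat
SNORA71 in 9430008C03Rik, nearest the start (chr2:158185534-158185665, minus strand): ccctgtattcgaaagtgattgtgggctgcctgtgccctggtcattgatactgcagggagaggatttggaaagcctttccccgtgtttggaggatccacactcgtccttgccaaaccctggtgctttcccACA
GENCODE vM1 places 9 snoRNAs in Gas5, 8 in Snhg1, 4 in Snhg12, 3 in 9430008C03Rik and 2 each in Snhg3 and Snhg5, and 1 lies 270 bp past the Snhg8 start. The pair in Snhg5 is 98.6% identical, the Snora73a and Snora73b pair in Snhg3 96.6%, and the copies of SNORA71 nearest to and farthest from the 9430008C03Rik start 93.9%, while the middle copy shares 70.2% and 69.7% with them. Reads from such copies are hard to place uniquely, and reads of low mapping quality were removed before peaks were called.

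Within each list peaks were ranked by fold enrichment over the local background, with rank 1 the strongest, and a gene took the best rank of any peak overlapping its bounds with 500 bp added on each side. A larger number is thus a weaker place. Over the 11048 genes with a peak in all 14 G1 lists, the median best rank was 4422 in early-G1, 4597 in mid-G1 and 4482 in late-G1. The 7 host genes measured lay between rank 21 and rank 6143 in G1. Snhg5 and Gas5 stood highest, with median ranks of 46.0 and 66.5 over the 14 libraries, followed by Snhg1 (84.5), Snhg3 (112.5), Snhg8 (187.5), Snhg12 (538.5) and 9430008C03Rik (1445). The G1 ranges of neighbours in this order overlapped throughout.

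**Figure D1:**
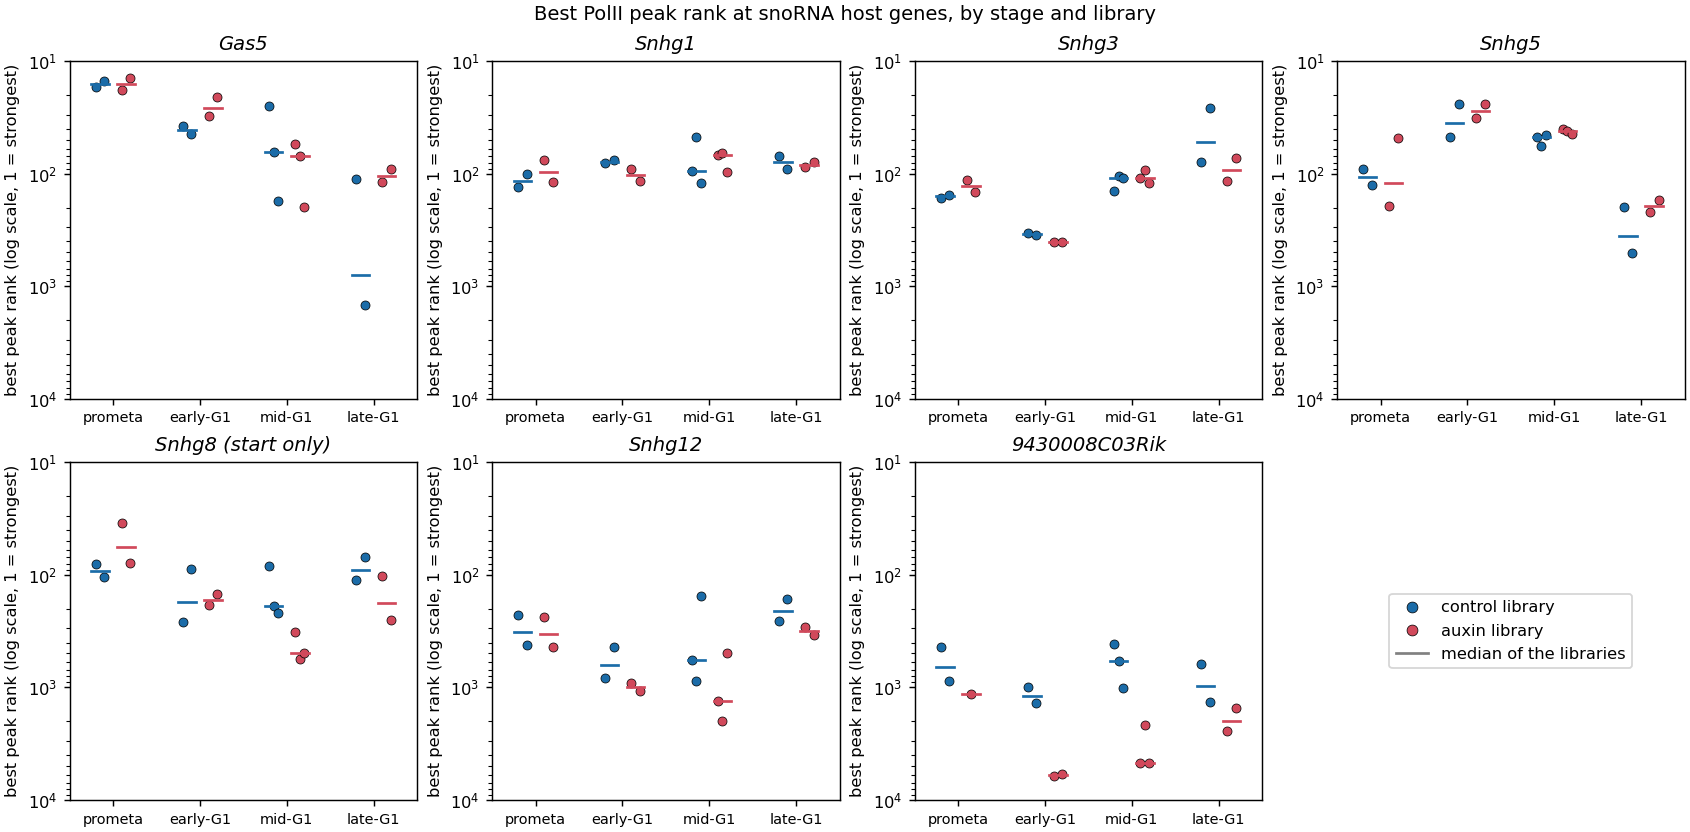
Best PolII peak rank of 7 snoRNA host genes in each of 18 libraries, on an inverted log axis, by stage, with control libraries in blue, auxin libraries in red and a line at the median of each group. Gas5 starts between 14 and 18 in prometaphase, Snhg1 keeps between 47 and 120 in G1, and the auxin libraries of 9430008C03Rik lie below its controls in each G1 stage.

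In prometaphase, when most transcription is shut off, 5 of the 6 genes found by symbol had a peak in all 4 lists, against 10.5% of the genes fitted, and so did Snhg8. Gas5, a host named for its accumulation in growth-arrested cells, ranked 17 and 15 in the control libraries and 18 and 14 with auxin. All 4 lay ahead of its ranks in G1, in lists that held far fewer peaks, and its summit pileup, the number of fragments stacked at the summit, was 101 in both control and 105 in both auxin libraries. The Gas5 peak was 6407 to 7017 bp wide there, against a median of 294 bp for the widest peak of the genes detected. It covered 85.3% to 87.8% of the gene and 57.2% to 70.1% of the 5 kb past its end, so the signal ran through and beyond the gene.

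The other hosts ranked lower in mitosis. Snhg1, the host of SNORD25 to SNORD31, ranked 130 and 101 in control and 76 and 118 in auxin libraries. Snhg3, the host of Snora73 (U17), which takes part in early ribosomal RNA cleavage, ranked 163 and 154 in control and 114 and 145 with auxin. Snhg5, the host of SNORD50, ranked 90 and 125 without and 193 and 48 with auxin. At these genes the control and auxin libraries overlapped or lay close together. Snhg8 ranked 81 and 105 in control and 35 and 78 in auxin libraries. Snhg12 ranked 226 and 420 without and 235 and 442 with auxin. 9430008C03Rik was the exception: it ranked 434 and 874 in control libraries and 1139 in auxin replicate 1. In auxin replicate 2 no peak overlapped its window, but a peak of rank 2181 lay 8112 to 8702 bp past the start, beyond the annotated end. The window followed the GENCODE vM1 bounds. With longer bounds that took in this peak, the gene would be detected in every prometaphase list. In control replicate 2 a peak at 8170 to 8829 bp ranked 615, ahead of the 874 inside the window. Summit pileups inside the window were only 23 and 19 fragments in control and 15 with auxin, so a missing peak means a signal not detectable at this depth. In such bulk samples fewer cells with PolII at a gene and less PolII per cell cannot be told apart.

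Gas5 (chr1:162964553-162968670, plus strand) lost rank through G1. It ranked 38 and 44 in control and 31 and 21 in auxin libraries of early-G1. In mid-G1 it ranked 25, 64 and 176 in control and 55, 69 and 198 in auxin libraries. In late-G1 it ranked 111 and 1468 in control and 118 and 90 in auxin libraries. Each late-G1 library ranked it lower than each early-G1 library, as for 10.7% of the genes fitted. The 1468 came from control replicate 3 of late-G1, and the auxin libraries did not separate from the controls beyond that spread.

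The best-ranked Gas5 peak had its summit 762 to 805 bp past the annotated start in 13 libraries, just past the downstream RefSeq start, which lies 744 bp from the annotated one. In the other 5 it lay 5510 to 5892 bp past the start, beyond the gene's end. The 3 of these in G1 were the replicate 3 libraries of mid-G1 control, mid-G1 auxin and late-G1 control. Those libraries also gave Gas5 the weakest rank of their groups. In prometaphase the peak did not reach the annotated start, and in G1 it covered all of the gene in 13 of the 14 libraries and 88.0% of it in control replicate 1 of mid-G1. G1 peaks were 7540 to 9182 bp wide, with a median of 8527.5 bp. Zbtb37, a zinc finger gene on the opposite strand, overlaps the annotated Gas5 start and took the same best rank in all 18 lists, so the 2 genes share these peaks.

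**Figure D2:**
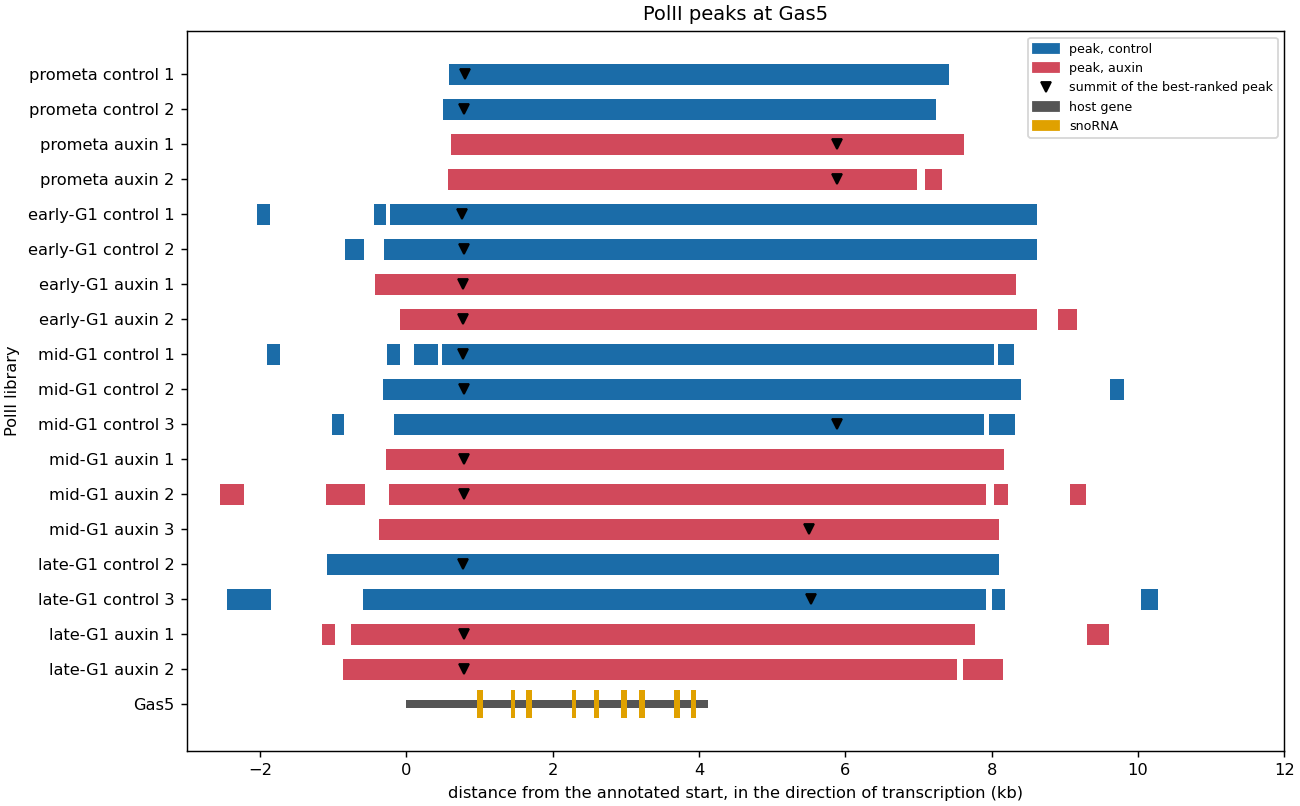
PolII peaks at Gas5 in 18 libraries, drawn as bars against distance from the annotated start in kb, with triangles at the summit of the best-ranked peak and snoRNAs in yellow on the gene. In prometaphase the bars begin past the annotated start, and summits sit at 762 to 805 bp in 13 libraries and at 5510 to 5892 bp in 5.

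Snhg5 (chr9:88415894-88417721, minus strand) moved in the same direction. In early-G1 it ranked 47 and 24 in control and 32 and 24 in auxin libraries. The mid-G1 ranks were 47, 57 and 45 in control and 40, 42 and 44 in auxin libraries. In late-G1 it ranked 198 and 511 without and 220 and 171 with auxin. All 4 late-G1 libraries lay beyond all 10 earlier ones of G1. Auxin and control libraries overlapped in early-G1 and late-G1, and in mid-G1 they lay next to each other without overlap. Its peak was 4474 to 5337 bp wide with the summit 14 to 40 bp past the start in all 14 G1 libraries.

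Snhg3 (chr4:131903929-131909601, minus strand) moved the other way. It ranked 334 and 352 in control and 405 and 401 in auxin libraries of early-G1. The mid-G1 ranks were 142, 105 and 110 without and 110, 93 and 122 with auxin. In late-G1 it ranked 79 and 26 without and 115 and 72 with auxin. Each late-G1 library ranked it higher than each early-G1 library, as did those of Snhg12 for its own rank, against 9.35% of the genes fitted. The Snhg3 summit lay 69 to 121 bp past the annotated start in G1, after the TATA letters at position 23. Rcc1, which encodes an exchange factor for Ran and overlaps Snhg3 on the same strand, and the antisense lincRNA Gm17300 took the same best rank as Snhg3 in all 18 lists, so these 3 genes cannot be told apart here.

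The local background of the peak moved together with these 3 courses. From the fold enrichment and p-value of a peak, MACS2's local background was recovered and divided by the genome-wide level of the list. At Snhg5 this ratio was 1.00 in all 4 early-G1 libraries and 1.09 in all 6 of mid-G1, but 1.97 and 1.91 in control and 2.01 and 2.05 in auxin libraries of late-G1. Its summit pileup was 225, 275, 221 and 228 in early-G1 and 260, 280, 218 and 236 in late-G1. At Gas5 the ratio was 1.40 in all 4 early-G1 libraries, 1.57 to 2.30 in mid-G1 and 1.97 to 2.86 in late-G1, with pileups of 273 to 322 and 272 to 319 in early-G1 and late-G1. The ratios of 2.12, 2.30 and 2.86 at Gas5 were read at the summit past the gene's end, and with the summit near the downstream start the ratio was 1.57 to 1.59 in mid-G1 and 1.97 to 2.05 in late-G1. At Snhg3 it ran the other way, from 1.62 to 1.75 in early-G1 through 1.04 to 1.09 in mid-G1 to 1.00 in late-G1. Snhg1, whose rank hardly moved, had ratios of 1.00 to 1.17 throughout.

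When peaks were ranked by summit pileup alone, the courses of these 3 genes largely closed up. Snhg5 then ranked 71, 48, 49 and 47 in early-G1 and 55, 40, 72 and 42 in late-G1. Gas5 ranked 23, 15, 11 and 2 in early-G1 and 21, 4, 18 and 12 in late-G1. Snhg3 ranked 140, 139, 130 and 151 in early-G1 and 114, 63, 147 and 96 in late-G1. By pileup none of the 6 genes ranked lower in all 4 late-G1 than in all 4 early-G1 libraries, where 8.51% of the genes fitted did, and Snhg12 alone ranked higher, where 7.58% did. Each list was called over the input of its own stage, with 1 input sample per stage, so stage and input cannot be told apart in these background values.

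**Figure D3:**
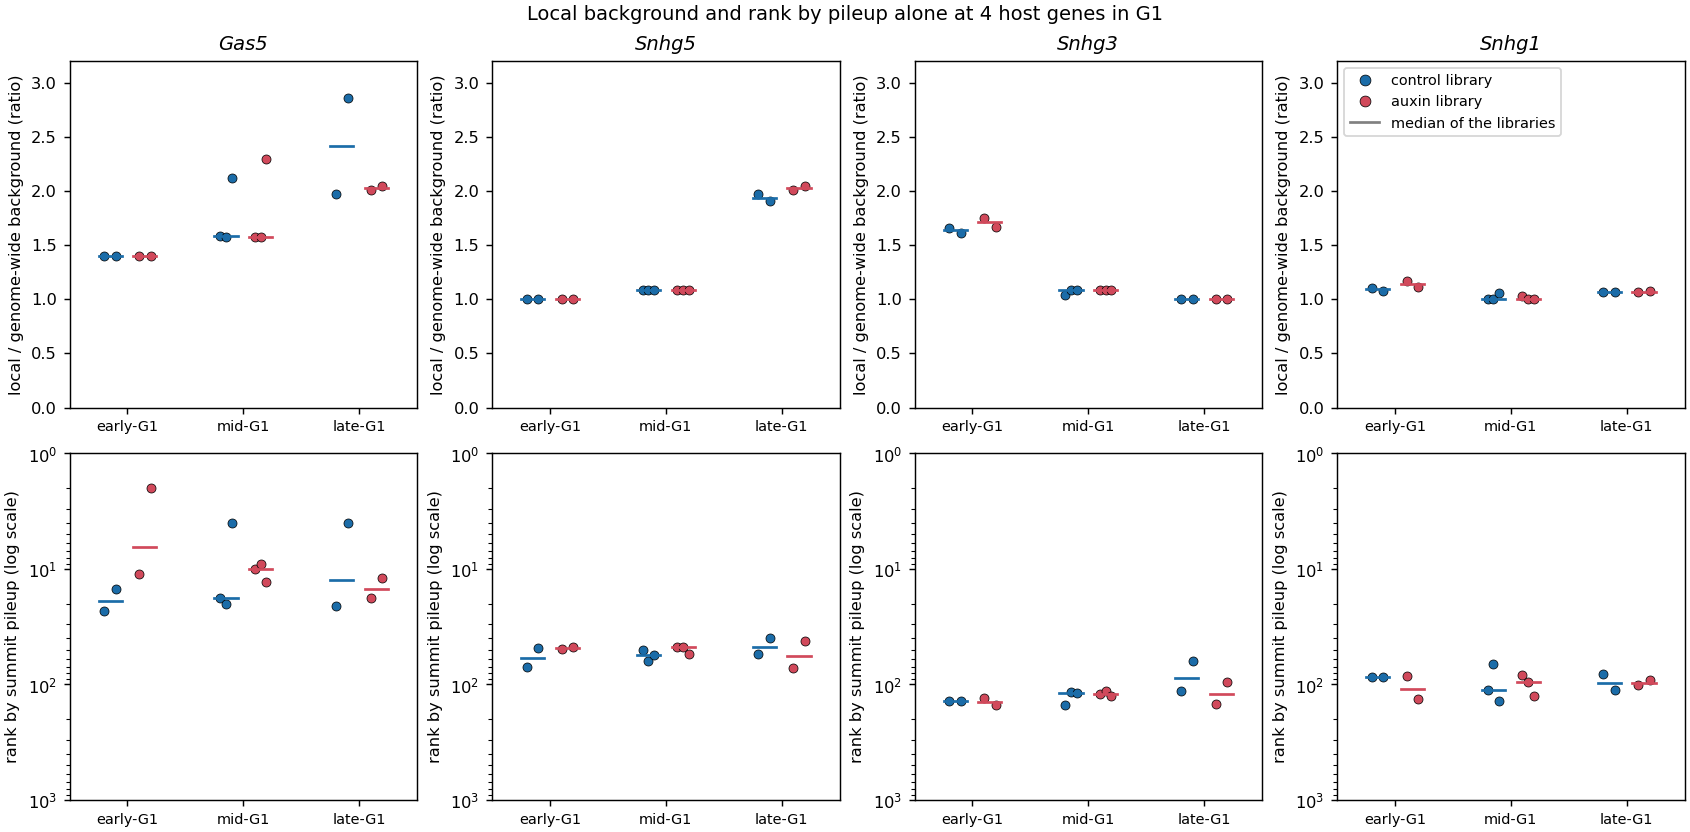
Ratio of local to genome-wide background at the best-ranked peak (upper row) and best rank by summit pileup on an inverted log axis (lower row) for Gas5, Snhg5, Snhg3 and Snhg1 in the 14 G1 libraries, with control libraries in blue, auxin libraries in red and lines at group medians. The background of Snhg5 rises from 1.00 to between 1.91 and 2.05 by late-G1 and that of Snhg3 falls to 1.00, while the pileup ranks of early-G1 and late-G1 overlap in all 4 genes.

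Snhg1 (chr19:8797986-8800932, plus strand) held its place. It ranked 81 and 76 in control and 90 and 117 in auxin libraries of early-G1. Its mid-G1 ranks were 95, 47 and 120 without and 68, 65 and 97 with auxin, and those of late-G1 69 and 90 without and 88 and 79 with auxin. Control and auxin libraries overlapped in mid-G1 and late-G1, and in early-G1 both auxin libraries ranked it lower. The summit stayed within 15 bp before to 46 bp past the annotated start in all 18 libraries, and the G1 peak was 4595 to 8479 bp wide. Slc3a2, which encodes a heavy subunit of amino acid transporters, lies divergent to Snhg1 and took the same best rank in all 18 lists.

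Snhg8 on chr3 was measured only near its start. It ranked 262 and 88 in control and 186 and 149 in auxin libraries of early-G1. In mid-G1 the controls ranked 83, 189 and 217 and the auxin libraries 324, 556 and 497, without overlap. In late-G1 the controls ranked 112 and 69 and the auxin libraries 102 and 253, which overlapped. The mid-G1 gap in rank came with background ratios of 1.36 to 1.58 in control and 1.72 to 1.97 in auxin libraries. These were read at different summits, 2036, 2321 and 2063 bp past the start in control and 2104, 2131 and 2216 bp with auxin. All mid-G1 lists were called over the same input, so the ratios do not test a difference in background between conditions. The mid-G1 summit pileups were 139, 222 and 208 in control and 188, 199 and 187 with auxin. Ranked by pileup within each list, the mid-G1 controls stood at 69, 88 and 126 and the auxin libraries at 140, 152 and 157, again without overlap. Neither gap has a share of all genes beside it, since single stages were not counted. Its summit lay 1364 to 2321 bp past the start in G1, past its annotated snoRNA, and its peak was 3310 to 4745 bp wide.

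Snhg12 (chr4:131864593-131866939, plus strand), the host of Snora16a, Snora44, Snora61 and Snord99 (the last a box C/D snoRNA), varied more between libraries. In early-G1 it ranked 819 and 435 in control and 915 and 1067 in auxin libraries. For mid-G1 the ranks were 577, 885 and 154 without and 1324, 1972 and 500 with auxin, and for late-G1 255 and 165 without and 289 and 344 with auxin. The auxin libraries were lower in early-G1 and late-G1, for which no share of all genes was counted, and overlapped the controls in mid-G1. Its summit lay 33 to 73 bp past the start in 10 G1 libraries and 3262 to 3292 bp past it, beyond the gene's end, in the other 4. Averaged over the 3 stages, auxin minus control in −log2 rank was −0.90, close to its spread within groups (SD 0.88). The same average was 0.73 for Gas5 (SD 1.28), 0.41 for Snhg5 (SD 0.45), −0.12 for Snhg1 (SD 0.41) and −0.37 for Snhg3 (SD 0.46), each smaller than its own SD within groups.

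9430008C03Rik (chr2:158181043-158187316, minus strand), a lincRNA that hosts 3 copies of SNORA71, was the member that moved with auxin. In early-G1 its best rank was 997 and 1377 in control libraries and 6143 and 5938 with auxin. The 3 mid-G1 controls ranked it 411, 583 and 1005, and the auxin libraries 4675, 2157 and 4718. The late-G1 controls ranked it 626 and 1339, and the auxin libraries 2432 and 1513. Each auxin library ranked it lower than each control library of the same stage. Of the genes fitted, 0.815% showed this in each G1 stage and 0.878% the reverse, and no other member found by symbol did either. Auxin minus control in −log2 rank was −2.37 in early-G1, −2.54 in mid-G1 and −1.07 in late-G1, with an SD within groups of 0.57.

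The peaks of 9430008C03Rik also covered less ground with auxin. The widest peak spanned 5515 and 6416 bp in control and 1039 and 1139 bp in auxin libraries of early-G1. It spanned 4976, 6371 and 5876 bp without and 4704, 4529 and 2063 bp with auxin in mid-G1, and 5423 and 10910 bp without and 2036 and 1537 bp with auxin in late-G1. A narrower widest peak in every auxin library of each G1 stage was found at 0.109% of the genes fitted. The share of the gene under peaks was 80.1% to 100% in the 7 control and 24.9% to 47.9% in the 7 auxin libraries of G1. In the 5 kb past the gene's end it was 83.0% and 98.1% in control against 38.0% and 37.8% with auxin in early-G1. The corresponding values were 73.9%, 96.2% and 81.7% against 63.2%, 63.5% and 56.0% in mid-G1, and 75.5% and 78.3% against 54.1% and 47.6% in late-G1. Less cover there in every auxin library of each G1 stage was found at 0.326% of the genes fitted. Snhg5 met the same criterion with small differences, for example 48.9% and 51.0% in control against 40.5% and 44.3% with auxin in early-G1.

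In the controls a peak past the annotated end rivalled the one at the start. The best-ranked peak had its summit 8477 to 8695 bp past the start in 3 control libraries and within 142 bp after the start in the other 4 and in all 7 auxin libraries of G1. Within 500 bp of the start alone the best rank was 997 and 2365 in control and 6143 and 5938 with auxin in early-G1. It was 411, 600 and 1382 against 4675, 2157 and 4718 in mid-G1, and 626 and 1339 against 2432 and 1513 in late-G1. With auxin the start thus ranked lower and the downstream region was less covered. The local background ratio of the start peak was 1.38 and 1.88 in control and 1.75 and 1.39 with auxin in early-G1. In mid-G1 that ratio was 1.74, 1.82 and 2.12 against 2.07, 1.89 and 1.97, and in late-G1 1.43 and 1.49 against 1.49 and 1.38. Control and auxin lists of a stage were called over the same input, so this ratio could differ between them mainly through the place of the summit. In early-G1 the ratios of 1.38 and 1.39 were read 87 and 83 bp past the start, and those of 1.75 and 1.88 at 98 and 126 bp. The overlap of control and auxin libraries in this background therefore does not test its part in the rank. Ranked by pileup alone, the gene stood at 590 and 583 in control and 3815 and 4739 with auxin in early-G1. By the same measure it stood at 259, 249 and 324 against 1712, 628 and 1826 in mid-G1, and at 376 and 470 against 1333 and 956 in late-G1. The groups were again apart in each G1 stage, as at 1.19% of the genes fitted. Snhg11, another SNORA71 host on the opposite strand with its start 14058 bp away, had no peak in any of the 18 lists.

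**Figure D4:**
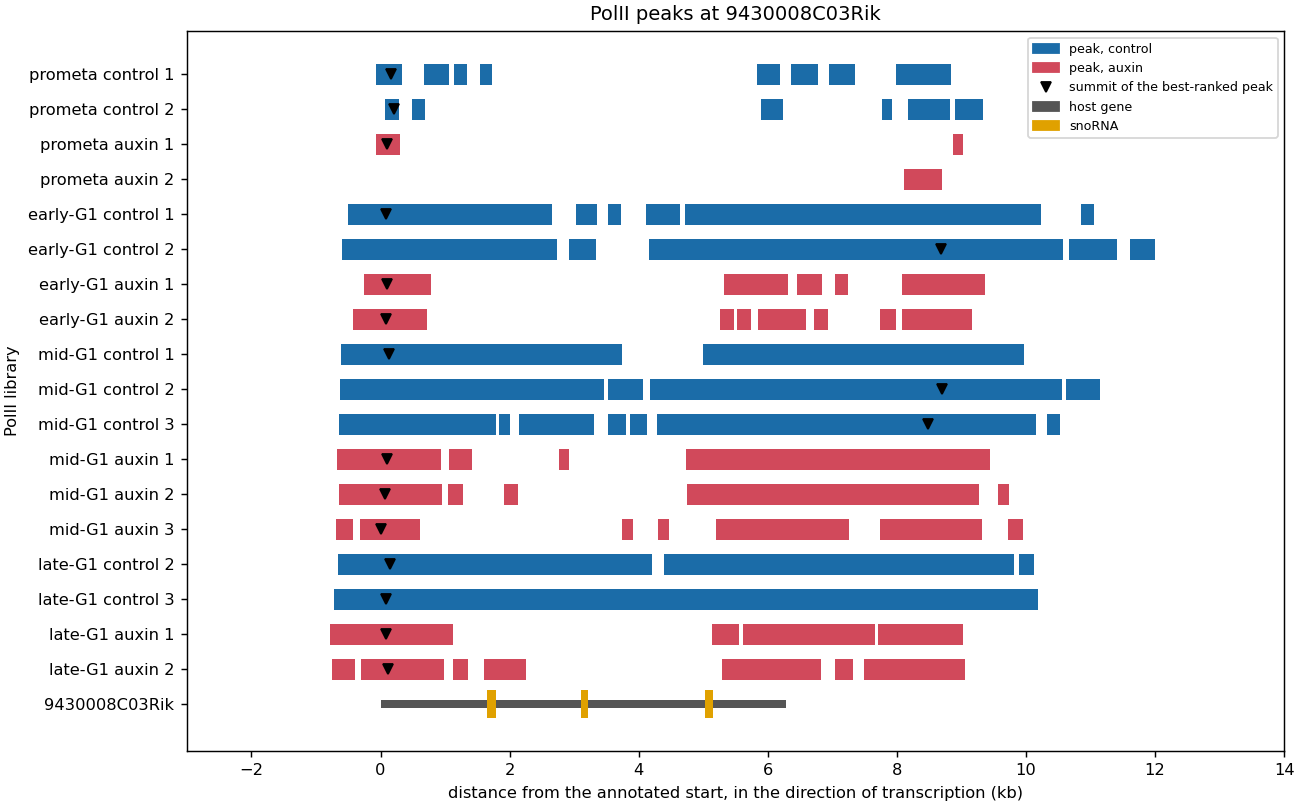
PolII peaks at 9430008C03Rik in 18 libraries, drawn as bars against distance from the annotated start in kb in the direction of transcription, with triangles at the summit of the best-ranked peak and snoRNAs in yellow on the gene. Control bars (blue) cover 80.1% to 100% of the gene in G1 and auxin bars (red) 24.9% to 47.9%, and 3 control libraries have their summit 8477 to 8695 bp past the start.

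The other snoRNA hosts of the annotation were tested in a limma fit of −log2 best rank over all 11048 genes, with 6 group means and the auxin effect averaged over G1. That fit called 0.407% of genes lower and 0.444% higher with auxin at a Benjamini-Hochberg adjusted p under 0.05 (45 and 49 genes), and on the log2 fold enrichment scale it called 9 and 19. Of 299 other hosts 217 were fitted, of which 3 fell and none rose. At an unadjusted limma p under 0.05, 15 of the 217 were lower and 6 higher, against 570 and 512 of all 11048 genes. Without control replicate 1 of early-G1 1 fell, and without control replicate 2 of late-G1 8 fell and 2 rose. Their median change was −0.05, against 0.01 for all genes. By class, 1 of 203 protein-coding and 2 of 14 non-coding hosts fell.

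Pabpc4, a cytoplasmic poly(A)-binding protein gene that hosts 2 annotated snoRNAs, ranked 484 and 423 in control and 7016 and 6403 in auxin libraries of early-G1. The mid-G1 ranks were 553, 307 and 273 against 5237, 3428 and 4047, and those of late-G1 524 and 310 against 6952 and 4278. Its change was −3.73 ± 0.23 (SE, limma adjusted p = 1.26e-06, lower in 7 of 7 auxin libraries than in each control). The limma adjusted p lay between 5.45e-07 and 0.0024 over the 25 alternatives that fitted it. Pabpc4 was not among the genes fitted within 500 bp of the start alone, so its change was not tested there. The lincRNA 2410004N09Rik changed by −1.24 ± 0.21 (SE, limma adjusted p = 0.0092), ranking 92 and 133 in control and 226 and 195 with auxin in early-G1. The lincRNA Snhg7 changed by −1.22 ± 0.24 (SE, limma adjusted p = 0.025), ranking 510 and 313 in control and 1161 and 922 with auxin in early-G1. The limma call of Snhg7 was lost in 11 of 25 alternatives, over which the adjusted p lay between 0.012 and 0.997. Among these were leaving out control replicate 1 or 2 of early-G1 (adjusted p = 0.051 and 0.12), auxin replicate 1 or 2 of early-G1 (0.10 and 0.065), auxin replicate 1 of mid-G1 (0.055), and control replicate 3 or auxin replicate 1 of late-G1 (0.084 and 0.094). It was also lost with ranks as a share of the list (limma adjusted p = 0.17), on the log2 fold enrichment scale (0.997) and with limma's trend (0.068). The limma call of 2410004N09Rik was lost in 4 of 26, among them without control replicate 1 of early-G1 (adjusted p = 0.058), on the share scale (0.065) and on the fold scale (0.997), over a range of 0.0066 to 0.997.

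Of the 18 genes for snoRNP proteins and their assembly, all were fitted, 1 rose and none fell, with a median change of −0.18. At an unadjusted limma p under 0.05, 2 of the 18 were lower and 2 higher, against 570 and 512 of all 11048 genes. Ruvbl2, an ATPase of the chaperone that assembles box C/D particles, ranked 3791 and 7533 in control and 2538 and 2250 in auxin libraries of early-G1. The mid-G1 ranks were 9490, 4958 and 7431 against 548, 911 and 1446, and those of late-G1 7279 and 7475 against 514 and 906. Its change was 2.52 ± 0.27 (SE, limma adjusted p = 3.16e-04), with the auxin libraries ahead in each stage. The limma adjusted p lay between 1.10e-04 and 0.015 over the 25 alternatives that fitted it. Ruvbl2 was not among the genes fitted within 500 bp of the start alone, so its change was not tested there. The core proteins Fbl, Nop56, Nop58, Nhp2l1, Dkc1, Nhp2, Nop10 and Gar1 did not pass the test, with changes between −0.43 (Nhp2) and 0.51 (Nhp2l1).

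Between early-G1 and late-G1 the same fit called 6.86% of genes lower (758) and 5.86% higher (647). With ranks as a share of the peaks of the list, which shifted every gene by −0.22 on the log2 scale, the split was 549 lower and 186 higher. Of the other hosts 18 fell and 10 rose, with a median change of −0.05 against −0.01 for all genes. Rcc1, which took the same best rank as Snhg3 in every list, was among those that rose, so that call rests on a member's peaks. Overlapping hosts also count separately with the same values, as Rps2 and Snhg9 or Rpl13 and Gm20388 did. Of the snoRNP genes 2 fell. Nop58, a core box C/D protein gene that itself hosts 4 snoRNAs and counts in both lists, fell by 3.01 ± 0.33 (SE, limma adjusted p = 1.49e-04). Nop10, which encodes a core H/ACA protein, fell by 1.36 ± 0.39 (SE, limma adjusted p = 0.033). These are ranks over the local background, as at Gas5 and Snhg5, and the part of that background in the calls was not tested gene by gene. All libraries of a stage share 1 input sample. The SE and adjusted p-values over time, and the counts called, therefore do not measure variation between inputs.

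Genes over 100 kb away or on another chromosome whose rank pattern over the 14 G1 libraries came closest to each member were listed by Pearson's r of −log2 best rank. These libraries share inputs and depth across genes, so r is given without a p. Snhg5 was closest to Sesn2, a stress-induced sestrin (r = 0.97), and Prrc2a (r = 0.96). Snhg3 was closest to Gltscr2, a nucleolar protein gene (r = 0.95), and Zfp653 (r = 0.95). Gas5 was closest to Btg2, an antiproliferative gene (r = 0.89), and the lincRNA 5430416N02Rik (r = 0.89). Btg2 ranked 128, 147, 149 and 120 in early-G1 and 142, 1212, 184 and 117 in late-G1, with its weakest rank in the same library as that of Gas5, control replicate 3 of late-G1. 9430008C03Rik was closest to Fndc8 (r = 0.90) and Slc10a1, a bile acid transporter gene (r = 0.87). Fndc8 ranked 10402 and 12587 in control and 48260 and 20817 with auxin in early-G1. Snhg12 was closest to the lincRNA Gm2788 (r = 0.92) and Rdm1 (r = 0.81), and Snhg1, which varied least, to Lyrm5 (r = 0.80) and Hsp90b1, an endoplasmic reticulum chaperone (r = 0.79).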

How the data were processed

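The authors aligned PolII ChIP-seq reads to mm9 with Bowtie2 2.2.9, removed low mapping quality and duplicates with SAMtools 0.1.19, removed blacklisted intervals with bedtools 2.27.1, and called peaks per library with MACS2 2.1.0 over the input of the same stage. The deposited lists give each peak's fold enrichment (a ratio over local background), −log10 p-value and q-value, and an integer score, which was not used. The narrowPeak lists hold no reads per gene, so ranks stood in for the read-count test of the study. The members and lists were chosen with earlier results of these data known.

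Best ranks per gene (GENCODE vM1, 500 bp flanks) were fitted in limma 3.58.1 (R 4.3.3) with 6 group means, after a check on simulated data. Overlapping genes share peaks. Solving fold enrichment and p-value together gave whole-number pileups for 100% of peaks (within 0.001 of −log10 p). Depth is the commonest background divided by the narrowest peak. Pileups carry counting error, and no interval was computed. Named genes are the members, their overlapping neighbours, the 2 protein-coding or lincRNA genes most like each by r and over 100 kb away, the 3 largest changes per direction among other hosts called, and the snoRNP genes called. Groups come from the sample titles. Sequences are from mm9 and from RefSeq promoters (GRCm38.p6, 250 bases before and 50 after the start).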

Additional observations from a re-analysis of the deposited data

How the results depend on the processing

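Auxin changed 45 genes down and 49 up, and late-G1 against early-G1 758 down and 647 up. Ranks as a share of the list gave 18 and 16 with auxin, and 549 and 186 over time. Ranks by −log10 p gave 429 up over time. Log2 fold enrichment gave 9 and 19, and 138 and 82. The start alone gave 29 lower with auxin, and summits inside the window 26. Ranks by summit pileup, chosen after seeing the data, gave 68 lower with auxin, and 458 and 418 over time. Leaving out 1 library gave 19 to 111 lower and 27 to 95 higher with auxin, and 427 to 888 lower and 353 to 816 higher over time. The lowest of these came without control replicate 1 of early-G1, and the highest without control replicate 2 of late-G1 for auxin and without control replicate 1 of mid-G1 over time. Where an arm then held 1 sample, it was assumed to vary like the others. Other hosts called lower with auxin numbered 1 under the share and fold scales and 1 to 8 on leaving out a library, and called higher 1 under −log10 p and pileup and 0 to 2. The members' median widest peak was 3387.5 bp when clipped to the window and 7029.75 bp with peaks within 1 kb joined.

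The auxin difference of 9430008C03Rik kept its sign in 23 of 23 alternatives, from −2.17 to −0.67, of which 1 was counted as moved from the main value. These alternatives reuse the lists that the gene was chosen on, so they describe the value and do not test it. The auxin difference of Snhg1 and of Snhg3 changed sign in 2 of 23 each and stayed within the spread between replicates.

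The replicate numbers gave correlations of deviations of 0.05 in early-G1, 0.06, 0.16 and 0.30 in mid-G1 and 0.02 in late-G1. Replicate 3 of mid-G1, at 0.30 with its own number, stood at −0.25 to −0.07 with the others. Deviations were taken from group means, so the values with the other numbers are partly forced to be negative. The labels do not say what a shared number means, and these correlations do not show whether it marks a batch. With the replicate block 42 genes were lower and 32 higher with auxin. The limma adjusted p was then 0.17 for 2410004N09Rik and 0.17 for Snhg7. Over time no block by pair could be fitted, since each pair lies within 1 stage. No result of a block by replicate number across stages is given here. Peak lists without read counts limit depth statements to the pileups given.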
